A study of Mus musculus with 2 samples.

Results

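The 6 genes described here, Elane, Mpo, Prtn3, Ctsg, Prss57 and Ms4a3, were taken by symbol as a list of primary (azurophil) granule genes, and all 6 were found among the 32286 features of the count tables. They were followed through progenitors, neutrophil stages and monocyte precursors of mouse bone marrow in single-cell RNA sequencing with a droplet-based 3′ kit. The control library came from Mx1Cre+/-;Rosa26+/+ marrow, which carries 1 copy of the Cre transgene and no MYC insert. The MYC library came from Mx1Cre+/-;Rosa26LSL-MYC/LSL-MYC marrow, in which both Rosa26 copies hold a MYC insert behind a stop cassette that Cre removes. Both groups therefore share the Mx1-Cre transgene, whose promoter responds to interferon and is active in blood-forming cells and some other tissues; the age of the animals, any inducing treatment and the number of animals behind each library are not given in the sources used here. The study set out to compare marrow gene expression after MYC overexpression in blood stem cells. There was 1 library per group, so no difference between the libraries could be tested, and the intervals given below (95%) cover counting error only.

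Primary granules are the first granules a neutrophil makes, at the promyelocyte stage, and store proteins that kill microbes in the phagosome. Their genes are switched on in myeloid progenitors and switched off before the secondary granule genes reach their peak, so the granule proteins of a mature neutrophil outlast their transcripts; monocyte precursors make the same proteins at lower amounts. Elane (neutrophil elastase), Prtn3 (proteinase 3), Ctsg (cathepsin G) and Prss57 (neutrophil serine protease 4) encode the granule serine proteases. Mpo encodes myeloperoxidase, the heme enzyme that makes hypochlorous acid. Ms4a3 encodes a membrane protein of granulocyte and monocyte progenitors that is not a protease; it is on the list as a gene of the same stage.

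In the GENCODE vM21 annotation of GRCm38, 3 of the 6 genes lie near one another on chromosome 10: Prss57 (chr10:79781474-79790961, minus strand), Prtn3 (chr10:79874476-79883174, plus strand) and Elane (chr10:79886247-79888215, plus strand), with 3072 bases between the end of Prtn3 and the start of Elane. Mpo lies at chr11:87793581-87804413 on the plus strand, Ctsg at chr14:56099881-56102574 on the minus strand beside other granule protease genes, and Ms4a3 at chr19:11629496-11640851 on the minus strand. The RefSeq promoter set of GRCm38.p6 (250 bases before to 50 bases after each gene's start) held 5 of the 6; Prss57 was not matched. The letters GGAAGT, a core that PU.1 and other ETS factors can bind, occurred on one strand or the other in all 5 of these promoters and in 24.1% of the 27025 promoters in the set. The stretches that hold it are shown because they are what the 5 promoters had in common among the letters searched; capitals mark GGAAGT and, in Elane and Prtn3, also CAACGG (a MYB-type core) and TATAA.
Elane: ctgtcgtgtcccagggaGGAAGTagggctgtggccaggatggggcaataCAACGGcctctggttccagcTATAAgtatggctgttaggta
Prtn3: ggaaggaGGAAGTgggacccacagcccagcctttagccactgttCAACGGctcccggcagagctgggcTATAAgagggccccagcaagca
Mpo: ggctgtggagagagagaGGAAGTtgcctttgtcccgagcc
Ctsg: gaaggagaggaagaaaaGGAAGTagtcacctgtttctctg
Ms4a3: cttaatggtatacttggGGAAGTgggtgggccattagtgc

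These stretches lie at chr10:79886212-79886301 (Elane, plus strand), chr10:79879567-79879656 (Prtn3, plus strand), chr11:87793545-87793584 (Mpo, plus strand), chr14:56102757-56102796 (Ctsg, minus strand) and chr19:11640884-11640923 (Ms4a3, minus strand), each read 5′ to 3′ on the gene's strand. The annotations place some starts differently: the RefSeq and GENCODE starts coincide for Ctsg and Ms4a3, while for Elane, Prtn3 and Mpo the RefSeq start lies inside the GENCODE gene, so that the Prtn3 stretch lies wholly, and those of Elane and Mpo in part, within it. GGAAGT began 83 bases before the RefSeq start of Elane and 93 before that of Prtn3, against 222 for Mpo, 205 for Ctsg and 55 for Ms4a3. Elane and Prtn3 also shared the order of their motifs: CAACGG began 51 and 56 bases before the start, and TATAA 31 and 32. CAACGG was found in these 2 promoters alone among the 5 and in 5.3% of all promoters, and TATAA in 3 of the 5 and in 25.5% of all. The TATAA of Ctsg began far from the others, 236 bases before the start. Ms4a3 held another GGAAGT after its start, at position 18. TTGCNNAA (C/EBP) was in 1 of the 5 and 10.8% of all, TGTGGT (RUNX) in 1 and 16.9%, and CACGTG, the E-box that MYC can bind, in 0 of the 5 and 7.24% of all; both strands were searched, and no motif overlaps another in the stretches shown.

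After filtering, 14189 control cells and 12188 cells carrying the MYC genotype were kept, with a median of 5282 and 6029.5 unique molecular identifiers (UMIs, each standing for 1 captured transcript) per cell; 77 cell barcodes occurred in both kept sets. Cells were grouped by clustering without the 6 genes and named by resemblance to marker lists, so each class below is like its name rather than proven to be it. The feature named MYC drew no UMI in the control library in any class described here, and 7 UMIs (0.735 CPM) in granulocyte progenitors and 143 (8.25 CPM) in mature neutrophils of the MYC library. Levels are UMIs per 1000000 UMIs of the class (CPM); they count transcript 3′ ends and are compared here within a gene. The granulocyte progenitor class held 584 control cells and 528 cells of the MYC library with nearly equal median depth (17408.5 and 17407 UMIs). Its cells carried the summed granulocyte progenitor markers at 7790 and 7612 CPM with all 19 markers detected, and also transcripts of secondary granules, Camp at 15610.0 and 18673 CPM, so the class ran from promyelocyte-like cells into the next stage. Eosinophil markers in it summed to 75.5 and 201 CPM, with Prg2 at 48.2 and 158.5 CPM and Epx at 1.53 and 17.1 CPM; their part in the results below was not tested.

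In granulocyte progenitors the 6 genes together made up a similar part of all transcripts in both libraries, while their makeup differed: less Mpo and more Ctsg and Prtn3 in the MYC library. The sum was 30179.7 CPM in control cells against 29018 CPM with MYC, a log2 ratio of −0.06 (−0.06 to −0.05). Mpo stood at 8978 CPM in control cells against 5454 CPM with MYC, 1.65-fold lower (log2 ratio −0.72, −0.73 to −0.70). Ctsg was at 2650.2 and 3838 CPM, 1.45-fold higher (log2 ratio 0.53, 0.51 to 0.56). Prtn3 was at 8096 and 9405 CPM (0.22, 0.20 to 0.23), and Elane at 9273 and 8910.0 CPM (−0.06, −0.07 to −0.04). The 2 less abundant genes were slightly higher in the MYC library, Prss57 at 276 and 319 CPM (0.21, 0.14 to 0.28) and Ms4a3 at 907 and 1092 CPM (0.27, 0.23 to 0.31).

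Only Mpo of the 6 passed the 1.5-fold rule in this class (past 1.5-fold with an interval that excludes 1, among genes with at least 50 UMIs over both libraries); by that rule 27% of the 9861 genes were lower and 3.6% higher in the MYC library. The median log2 ratio over all these genes was −0.30. Against that median, Mpo stood at −0.42, Elane at 0.24, Prtn3 at 0.52 and Ctsg at 0.84. With the libraries scaled by median of ratios instead, Mpo (−0.39) missed 1.5-fold, Ctsg (0.86) and Ms4a3 (0.59) passed it, and Elane and the sum were at 0.27, so the sign of the last 2 depended on the scaling. With only cells under 5% mitochondrial UMIs, Mpo was at −0.02, while Ctsg (1.36), Prtn3 (0.77), Prss57 (0.73) and Ms4a3 (0.67) were past 1.5-fold; the part of mitochondrial share in the result was not tested. As a mean over cells Mpo was at −0.57 and Ctsg at 0.63, and Ctsg was also past 1.5-fold with doublets kept (0.60) and with both progenitor classes joined (0.67).

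The share of each gene among the UMIs of all 6 does not depend on scaling. In granulocyte progenitors Mpo held 29.7% of them in control cells against 18.8% with MYC, a difference of −10.95 percentage points (−11.2 to −10.7). Prtn3 came after Elane and Mpo in the control by share and ahead of both in the MYC library, at 26.8% and 32.4% (5.59 points more, 5.36 to 5.82), and Ctsg was at 8.78% and 13.2% (4.44 points more, 4.29 to 4.60). Elane held 30.7% in each library; over the alternatives its difference ranged from −3.86 to 0.03 points. Ms4a3 was at 3.0% and 3.76% and Prss57 at 0.914% and 1.10%. The lower Mpo share and the higher Prtn3 and Ctsg shares kept their sign under the 8 alternatives that gave this class and could move a share (both changes of scaling cannot), with Mpo between −10.95 and −7.18 points, Prtn3 between 5.31 and 6.95 and Ctsg between 4.26 and 6.42.

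**Figure D1:**
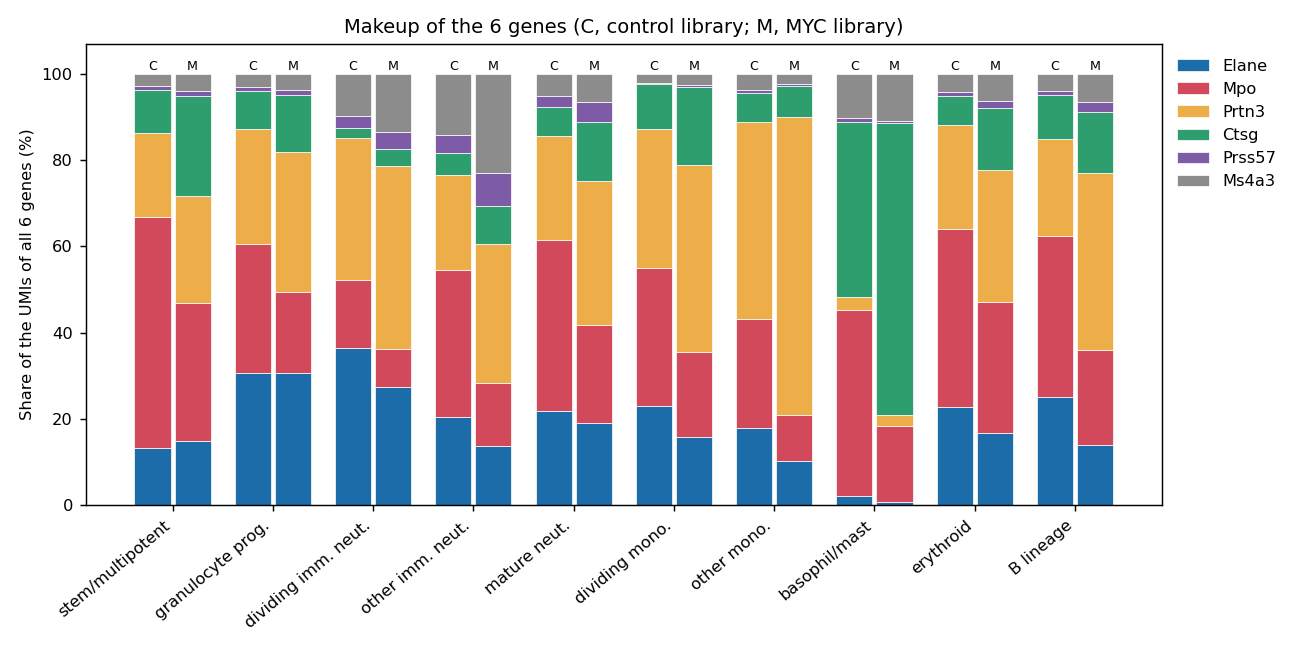
Stacked bars give each gene's share (%) of the UMIs of all 6 genes, summed over the cells of a class, for the control library (C) and the MYC library (M). The Mpo part is shorter in the MYC library in all 10 classes drawn, for example 29.7% against 18.8% in granulocyte progenitors; erythroid and B lineage cells do not make these proteins, and in control B lineage cells the richest 5% held 64.6% of the UMIs drawn.

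Single cells showed the same contrast. Among granulocyte progenitors with at least 50 UMIs of the 6 genes (451 control cells and 425 of the MYC library), the median cell devoted 28.9% of these UMIs to Mpo in control cells against 17.4% with MYC; the 10th to 90th percentiles, 15.6% to 41.8% and 7.89% to 29.4%, overlapped. For Ctsg the medians were 7.75% and 10.3%, and for Prtn3 26.8% and 33.4%. The total per cell was alike: the median granulocyte progenitor spent 3.0% of all its UMIs on the 6 genes in control cells against 2.95% with MYC, with 10th percentiles of 0.0688% and 0.0900% and 90th percentiles of 5.22% and 5.56%. With each cell thinned to 1000 UMIs, 73.8% (70.1% to 77.4%) of control cells and 73.6% (69.6% to 77.3%) of the MYC library's cells spent at least 1% of their UMIs on the 6. The 5% richest cells held 13.3% and 13.7% of the class's UMIs of these genes.

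**Figure D2:**
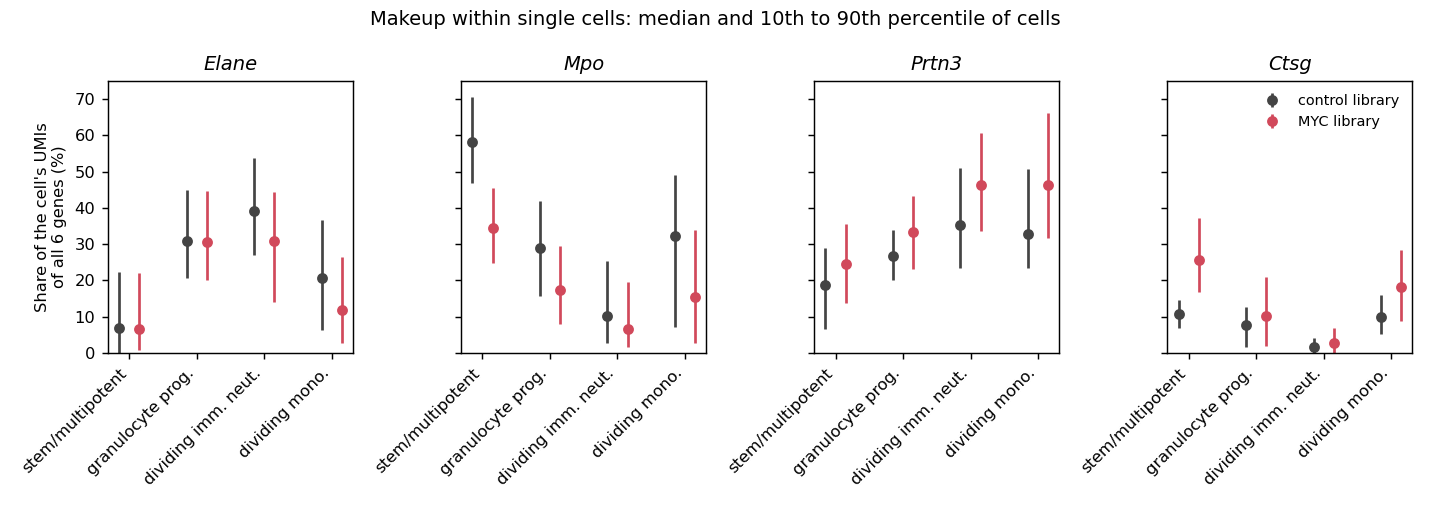
Points give the median, and lines the 10th to 90th percentile over cells, of a gene's share (%) of the cell's UMIs of all 6 genes, in cells with at least 50 such UMIs. Mpo medians are lower and Ctsg and Prtn3 medians higher in the MYC library in all 4 classes; the Mpo ranges of the stem or multipotent class do not overlap (46.9% to 70.7% and 24.7% to 45.4%).

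Granulocyte progenitors were also put in 5 bins by the share of their UMIs in secondary granule genes (Ltf, Camp, Ngp, Lcn2, Chil3 and Fcnb), a range of a score rather than a cell type. In the control all 6 genes were highest in the second bin and lowest in the fifth; in the MYC library the same held except for Ctsg, which was at 6752 CPM in the first bin and 6509 in the second. Mpo and Ctsg declined early: control Ctsg went from 4692 CPM in the second bin to 2400 in the third, 649 in the fourth and 23.4 in the fifth, while control Elane was still at 13550.3 CPM in the third bin and 8122 in the fourth. Ms4a3 declined least, to 250 CPM (control) and 358 CPM (MYC library) in the fifth bin. Mpo was lower in the MYC library in each of the first 4 bins, with log2 ratios of −0.56, −0.60, −0.78 and −0.92, and higher in the fifth (0.48), where it was down to 160.5 and 224 CPM. Ctsg was higher in all 5 bins (0.84, 0.47, 0.41, 0.43 and 2.13), the last from 41 and 139 UMIs. In the first bin, with the fewest secondary granule transcripts, Ctsg stood at 3781 CPM in 108 control cells and 6752 CPM in 115 cells of the MYC library, while Mpo stood at 11516 and 7830 CPM.

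The same score was used to put all neutrophil lineage cells in 5 bins, where granulocyte progenitors made up 15.04% of control cells and 30.5% of MYC cells in the first bin. In the other bins they made up between 4.51% and 11.3%. The score does not order this wider lineage from early to late. Camp, 1 of its genes, was at 40517 and 45865 CPM in immature neutrophils but at 4925 and 11378 CPM in mature neutrophils. A low bin can thus hold both early and late cells. In these bins of the wider lineage Mpo was lower in all 5, with log2 ratios of −0.30, −1.26, −1.35, −0.99 and −0.32. The fifth bin was near the level of erythroid cells: Mpo was at 55.2 and 44.3 CPM there, beside 77.6 and 46.2 CPM. Ctsg was at 10.3 and 28.2 CPM in that bin, beside 12.4 and 22.1 CPM in erythroid cells. Elane was higher in the first bin and the fifth (0.30 and 0.34) and lower between them (−0.64, −0.74 and −0.79). Ctsg was higher in 4 of the bins (0.98, 0.14, 0.72 and 1.45) and lower in the second, at 531 CPM in control cells against 476 with MYC (−0.16, −0.23 to −0.083). The sum of the 6 had log2 ratios of 0.31, −0.62, −0.60, −0.34 and 0.74. The direction seen for Ctsg within granulocyte progenitors thus did not hold in every bin of the wider lineage. Elane had no single direction within granulocyte progenitors either. Its log2 ratios in their 5 bins were 0.15, −0.0084 (−0.033 to 0.016), −0.060, −0.23 and 0.30. The part of the unequal class makeup was not tested.

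**Figure D3:**
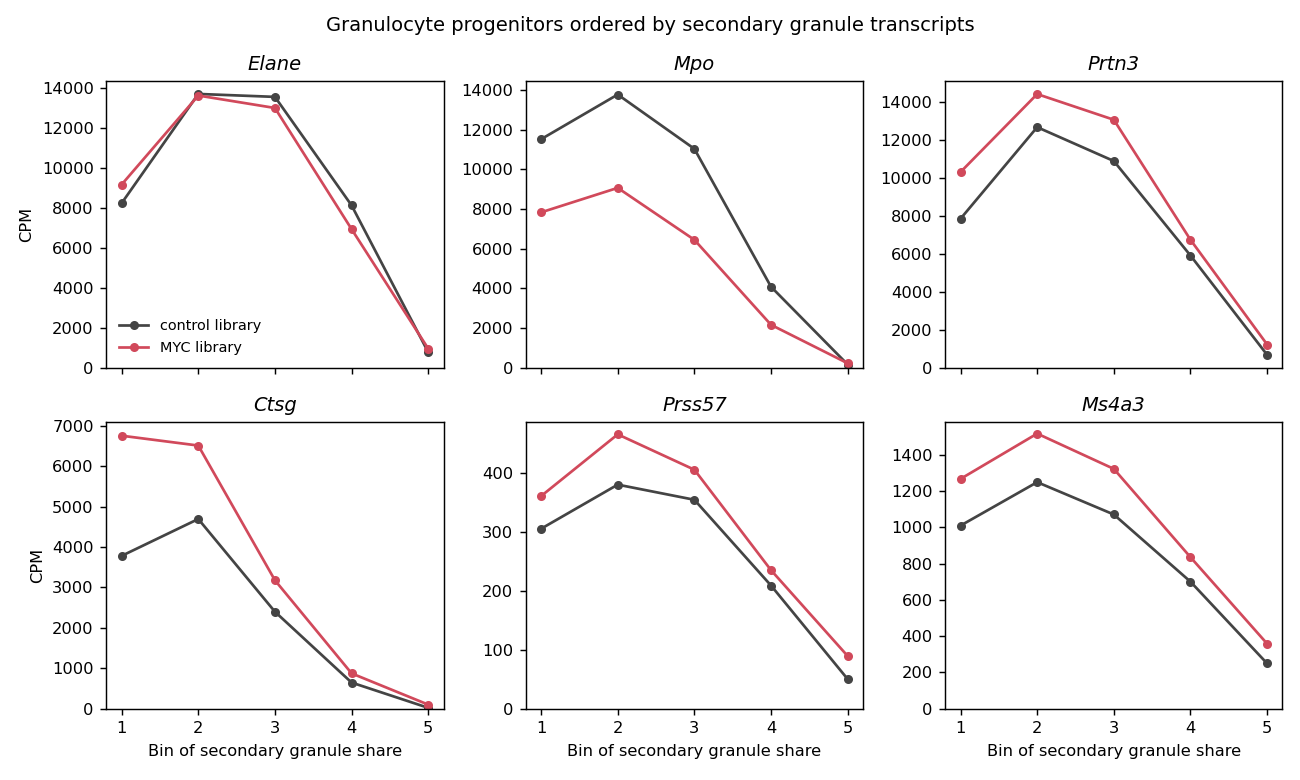
Lines give the CPM of each gene in 5 bins of granulocyte progenitors, ordered from the lowest to the highest share of secondary granule transcripts, for the control (grey) and MYC (red) libraries. The Mpo line of the MYC library lies under the control line in bins 1 to 4 and the Ctsg line lies above it in all 5, while the Elane lines run close together.

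Across single granulocyte progenitors the 6 genes varied together in both libraries. As a description over 584 and 528 cells, which share a library and each cell's depth, Spearman's rho between Elane and Prtn3, the neighbours on chromosome 10, was 0.88 and 0.90, and between Mpo and Ctsg 0.85 and 0.86. Against the secondary granule share, rho was −0.83 and −0.87 for Ctsg and −0.77 and −0.79 for Mpo, but −0.54 and −0.57 for Elane. Over the 27 clusters of all marrow cells, Pearson's r of log2(CPM + 1) was highest for Elane with Prtn3 (0.96), Mpo with Ctsg (0.95) and Prss57 with Ms4a3 (0.93), and lowest for Ctsg with Prss57 (0.76).

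**Figure D4:**
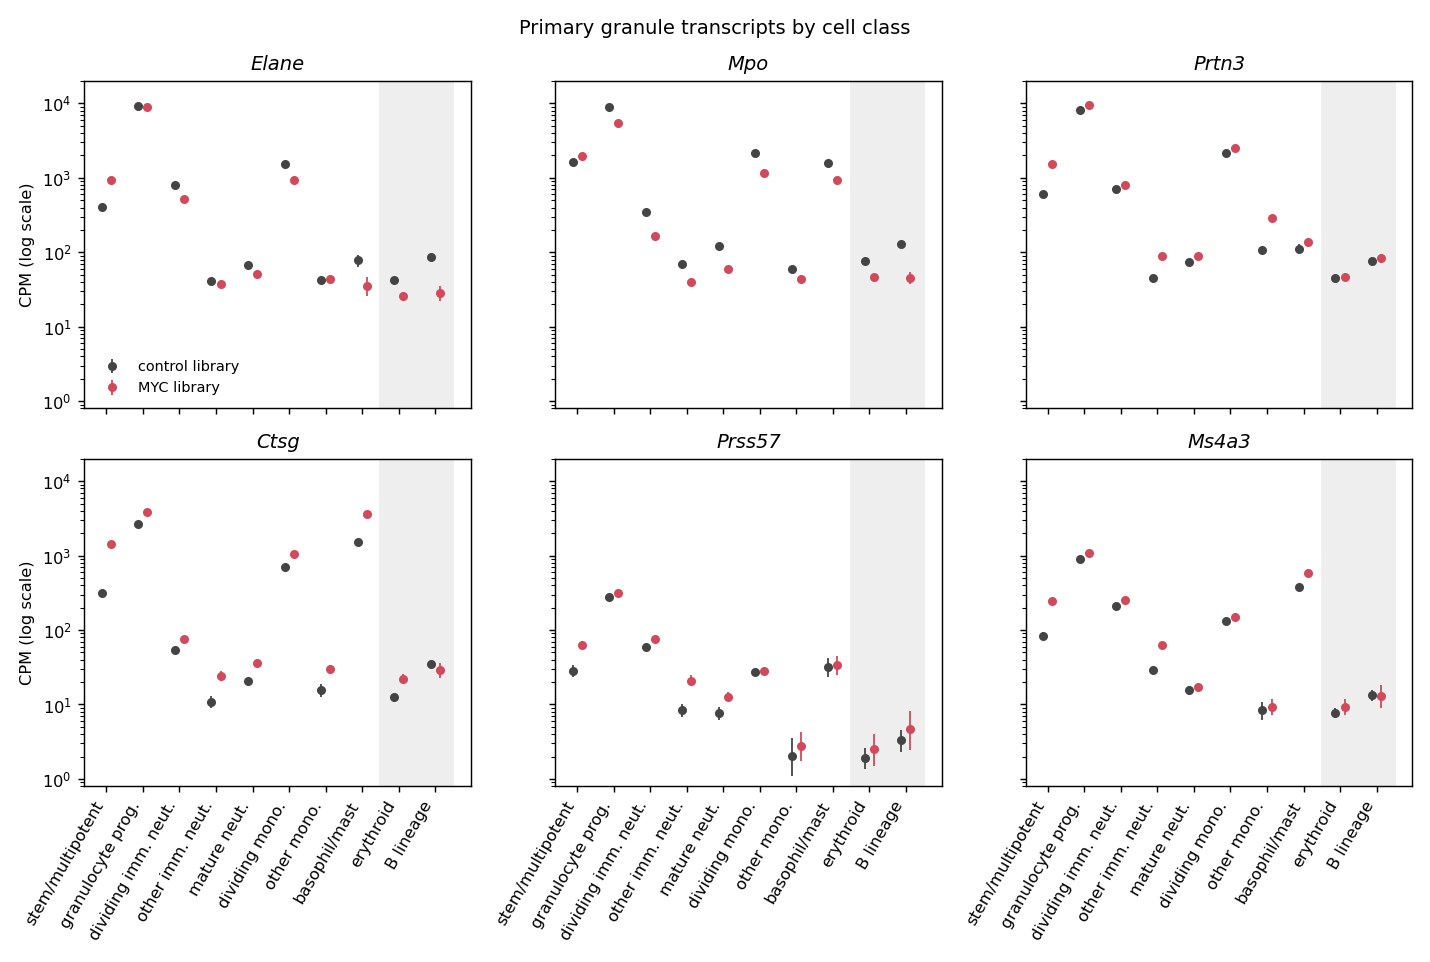
Points give each gene's level (CPM, log scale) summed over the cells of a class, with exact Poisson intervals at 95% (often smaller than the point), for the control and MYC libraries. Granulocyte progenitors are the highest class for each of the 6 genes; the shaded classes, erythroid and B lineage cells, do not make these proteins.

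The order of classes differed from gene to gene below the common peak. Elane in the control fell from 9273 CPM in granulocyte progenitors to 1548 in dividing monocyte precursors, 795 in dividing immature neutrophils and 412 in stem or multipotent progenitors; in the MYC library the stem or multipotent class (928 CPM) and the dividing monocyte precursors (924 CPM) could not be ordered within their counting intervals, and dividing immature neutrophils were at 516 CPM. Prtn3 kept the order granulocyte progenitors, dividing monocyte precursors, dividing immature neutrophils and stem or multipotent progenitors in the control (8096, 2164, 717 and 601 CPM), with the last 2 exchanged in the MYC library (9405, 2516, 802 and 1537 CPM). Mpo in the control ran from granulocyte progenitors to dividing monocyte precursors at 2157 CPM, then to stem or multipotent progenitors at 1655 and basophils or mast cells at 1597, whose intervals overlapped. For Mpo in the MYC library, stem or multipotent progenitors came second at 1995 CPM, ahead of dividing monocyte precursors at 1147 and basophils or mast cells at 937. Ctsg and Ms4a3 had their second-highest level in basophils or mast cells, at 1502 and 376 CPM in the control. Prss57 had it in dividing immature neutrophils, at 59.4 CPM in control cells against 75.2 with MYC, where its interval overlapped that of stem or multipotent progenitors (62.8 CPM, 54.6 to 71.9). Of all UMIs of the 6 genes, granulocyte progenitors held 69.3% in control cells against 60.2% with MYC, monocytes 15.1% and 23.2%, and immature neutrophils 7.12% and 7.42%.

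In the class of stem or multipotent progenitors (182 and 175 cells, median depth 20852.5 and 14770.0 UMIs) the sum of the 6 was 3092 CPM in control cells against 6221 with MYC. In each library the richest 9 cells held 33.1% and 36.3% of it, and the median cell spent 0.0495% and 0.0729% of its UMIs on the 6 genes. Ctsg differed most, at 311 and 1449 CPM, 4.66-fold higher (log2 ratio 2.22, 2.13 to 2.31), followed by Ms4a3 at 84.3 and 249.3 CPM (1.56), Prtn3 at 601 and 1537 CPM (1.35), Elane at 412 and 928 CPM (1.17) and Prss57 at 28.5 and 62.8 CPM (1.14). Mpo was at 1655 and 1995 CPM (0.27), a ratio that kept its sign in 5 of 11 alternatives and ranged down to −1.45. By the 1.5-fold rule 5 of the 6 were higher, where 6.22% of the 9137 genes tested were higher and 10.9% lower. The class was mixed: megakaryocyte markers summed to 2730 and 2282 CPM, beside 2567 and 2261 CPM for its own marker list. Eosinophil markers summed to 139 and 32.3 CPM, with Prg2 at 99.8 and 4.18 CPM. Flt3 was at 83.3 and 35.9 CPM and Irf8 at 121 and 64.0 CPM, while Cd34 was at 215 and 209 CPM. The part of these markers in the ratios was not tested. Granulocyte progenitor markers summed to 2202 and 3291 CPM in this class, a part that was not tested either. The levels of the 6 depended on the processing. The log2 ratio of their sum reversed to −0.01 at a coarser clustering and to −1.04 when the libraries were clustered separately. It was 0.01 with both progenitor classes joined, where 584 of the 766 control cells were granulocyte progenitors. The makeup did not reverse for Mpo or Ctsg: Mpo held 53.5% of the 6 in control cells against 32.1% with MYC, Ctsg 10.1% and 23.3%, and over the alternatives that gave this class the 2 differences kept their sign.

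In single cells of this class with at least 50 UMIs of the 6 genes (53 and 62 cells), the 10th to 90th percentile of the Ctsg share ran from 6.75% to 14.6% in the control and from 16.8% to 37.3% in the MYC library, without overlap. Thinned to 1000 UMIs, 18.7% (13.3% to 25.1%) of control cells and 37.4% (30.2% to 45%) of the MYC library's cells held a Ctsg UMI, against 2.16% and 6.67% of B lineage cells. For Mpo the shares of cells were 36.8% and 37.4%, against 8.83% and 5.83% of B lineage cells. Elane was found in 17.03% and 19.5% of these cells, against 5.02% and 4.17% of B lineage cells.

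Over all immature neutrophils (2602 and 2080 cells), Ctsg at 35.4 and 62.0 CPM, Prss57 at 37.0 and 60.6 CPM and Ms4a3 at 131 and 201 CPM were past 1.5-fold higher in the MYC library, where 9.38% of genes were higher, and Mpo at 224 and 133 CPM was lower, where 18.5% were lower. With each library clustered on its own the first 3 log2 ratios reversed, to −1.52, −0.47 and −0.61. The Mpo log2 ratio kept its sign but ran from −2.88 to −0.12 over the alternatives, so its 1.5-fold call did not hold in all. The Ctsg log2 ratio ran up to 5.48, and its control level stood beside 34.6 CPM in control B lineage cells. The class also differed in other measures: markers of mature neutrophils summed to 4791 and 2622 CPM, and 976 and 1222 of its cells were in dividing clusters. Their part in these ratios was not tested. Immature neutrophils were split by cell cycle genes into dividing clusters (976 and 1222 cells) and others. In dividing immature neutrophils the sum was 2182 CPM in control cells against 1889 with MYC, and the 5% richest cells held 59.5% and 59.2% of it; the median cell went the other way, at 0.0339% of its UMIs in the control and 0.0450% with MYC. Elane was at 795 and 516 CPM (log2 ratio −0.62, −0.66 to −0.58) and Mpo at 344 and 167 CPM (−1.04, −1.10 to −0.97), both past 1.5-fold lower, as were 16.9% of genes; 0 of the 6 were past 1.5-fold higher, where 6.7% of genes were. Prtn3 was at 717 and 802 CPM (0.16), Ms4a3 at 212 and 252 CPM (0.25), Prss57 at 59.4 and 75.2 CPM (0.34) and Ctsg at 54.6 and 76.0 CPM (0.48). The Prtn3 share of the 6 was 32.9% and 42.4%, the Ms4a3 share 9.70% and 13.4% and the Elane share 36.4% and 27.3%.

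In the other immature neutrophils (1626 and 858 cells) the sum was 205 and 275 CPM, beside 187 and 153 CPM in erythroid cells, which do not make these proteins. Ms4a3 and Prss57 stood above the erythroid level: Ms4a3 was at 28.9 and 63.0 CPM against 7.74 and 9.36 CPM in erythroid cells, and Prss57 at 8.42 and 21.0 CPM against 1.91 and 2.51 CPM. Both were higher in the MYC library, with log2 ratios of 1.12 (0.91 to 1.34) and 1.32 (0.93 to 1.71). Prtn3 (45.02 and 88.4 CPM) and Ctsg (10.8 and 24.3 CPM) were also past 1.5-fold higher, making 4 of 6, where 8.58% of genes were higher; erythroid cells held Prtn3 at 45.3 and 46.9 CPM and Ctsg at 12.4 and 22.1 CPM, and B lineage cells held Prtn3 at 77.1 and 83.8 CPM. Mpo was past 1.5-fold lower (70.1 and 40.3 CPM), where 18.9% of genes were lower, and in erythroid cells it was at 77.6 and 46.2 CPM. Elane was at 41.7 and 37.6 CPM.

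In mature neutrophils (3391 and 3118 cells) the sum was 306 CPM in control cells against 266 with MYC; erythroid cells were at 187 and 153 CPM, B lineage cells at 342 and 204 CPM and T or NK cells at 807 and 280.5 CPM. Different clusters held most of this class in each library: clusters 7 and 8 held 1575 and 1601 of the control cells, and clusters 6 and 14 held 1305 and 1543 cells of the MYC library. Mpo was at 122 and 60.3 CPM (−1.01), Ctsg at 20.4 and 36.3 CPM (0.83) and Prss57 at 7.61 and 12.7 CPM (0.74), which made 1 gene past 1.5-fold lower and 2 higher, where 22.9% of genes were lower and 9.35% higher. After thinning to 1000 UMIs, 73.0% and 74.3% of mature neutrophils held no UMI of any of the 6, as did 80.0% and 74.6% of B lineage cells. In erythroid cells Mpo was at 77.6 and 46.2 CPM (−0.75) and Ctsg at 12.4 and 22.1 CPM (0.83). A few cells weighed on the control sums of the lymphoid classes: the richest 5% held 64.6% of these UMIs among B lineage cells and 80.7% among T or NK cells, against 17.9% in mature neutrophils. The median mature neutrophil spent 0.0262% and 0.0229% of its UMIs on the 6 genes, against 0.0144% and 0.0173% in B lineage cells. Markers of maturity moved with the ratios in this class: summed immature neutrophil markers were at 32602 and 53737 CPM, Camp at 4925 and 11378 CPM and Csf3r at 1152 and 387 CPM. The parts of free RNA and of maturity in the ratios were not tested.

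Over all monocytes Ctsg was past 1.5-fold higher with MYC (449 and 750.1 CPM), where 8.76% of genes were higher, and Mpo was lower (1377 and 819.5 CPM), where 15.7% were lower. The Ctsg ratio (0.74) reversed to −0.096 at Leiden resolution 2 and to −1.74 when the libraries were clustered separately. The Mpo ratio (−0.75) kept its sign but ran from −3.96 to −0.41 over the alternatives, so its 1.5-fold call did not hold in all. Monocytes were split into dividing precursors (cluster 12, with 590 and 926 cells) and others (clusters 10 and 17, with 732 and 740 cells). The dividing class carried monocyte genes, with Ly6c2 at 2126 and 1582 CPM and Csf1r at 133 and 99.5 CPM, and summed granulocyte progenitor markers at 3357 and 3147 CPM. Other markers differed between the libraries in this class: those of stem or multipotent progenitors summed to 198 and 360 CPM (13 of 13 with UMIs in each), those of conventional dendritic cells to 192 and 349 CPM (11 of 11), and those of eosinophils to 84.1 and 10.8 CPM, with Prg2 at 54.2 and 1.18 CPM. Their part in the values that follow was not tested. Here the sum of the 6 was 6733 CPM in control cells against 5819 with MYC (−0.21, −0.22 to −0.20), while the median cell spent 0.117% of its UMIs on the 6 genes in the control and 0.174% with MYC. The richest 5% of these cells held 35.5% and 33.8% of the sum. Mpo was at 2157 and 1147 CPM (−0.91, −0.94 to −0.88) and Elane at 1548 and 924 CPM (−0.74, −0.78 to −0.71), both past 1.5-fold lower, as were 14.1% of genes; 0 of the 6 were past 1.5-fold higher, where 6.57% of genes were. Ctsg was at 705 and 1054 CPM (0.58, 0.54 to 0.62) and Prtn3 at 2164 and 2516 CPM (0.22, 0.19 to 0.24). Prtn3 made up 32.1% of the 6 in control cells against 43.2% with MYC, Mpo 32.0% and 19.7%, Elane 22.98% and 15.9% and Ctsg 10.5% and 18.1%. In thinned cells, a Prtn3 UMI was present in 50.8% and 64.0% of dividing precursors and an Elane UMI in 35.8% and 29.3%.

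In the monocytes outside the dividing cluster, Prtn3 stood furthest above the erythroid level of the 6. It was at 106.6 CPM in control cells against 292 CPM with MYC, 2.74-fold higher (log2 ratio 1.45, 1.33 to 1.58), while erythroid cells were at 45.3 and 46.9 CPM and B lineage cells at 77.1 and 83.8 CPM. No range over the alternatives is given for these clusters apart. Over all monocytes the Prtn3 log2 ratio (0.41) ran from −1.07 to 0.88. Markers also differed in the other monocytes, with Csf1r at 382 and 234 CPM, Csf3r at 116 and 46.9 CPM and Camp at 396 and 564 CPM. Their part was not tested. Elane was at 41.9 and 43.2 CPM and Mpo at 58.9 and 44.4 CPM, beside 42.4 and 25.6 CPM and 77.6 and 46.2 CPM in erythroid cells. Thinned to 1000 UMIs, 10.8% (8.67% to 13.3%) of control cells and 22.4% (19.5% to 25.6%) of the MYC library's cells held a Prtn3 UMI, against 6.06% and 9.58% of B lineage cells; without thinning the shares were 44.8% and 80.0%, against 25.9% and 41.5%. By cluster, Prtn3 was at 112 and 305 CPM in cluster 10. In cluster 17, led by Ace and Adgre4, it was at 65.2 and 96.9 CPM from 44 and 46 UMIs, with an interval of the log2 ratio from −0.06 to 1.20; the ratios of the clusters were not compared with each other. Ctsg was at 15.5 and 29.8 CPM (0.94), also past 1.5-fold higher and near the erythroid levels of 12.4 and 22.1 CPM. These 2 of 6 genes compare with 13.9% of all genes higher and 20% lower.

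Basophils or mast cells (173 and 142 cells), another granulocyte lineage, marked here by Mcpt8 and Fcer1a, held a different part of the list. Ctsg was at 1502 CPM in control cells against 3614 CPM with MYC (log2 ratio 1.27, 1.19 to 1.34), and Ms4a3 was at 376 and 575 CPM (0.61, 0.46 to 0.77). Mpo was at 1597 and 937 CPM (−0.77, −0.87 to −0.67). Elane (78.0 and 35.0 CPM) and Prtn3 (112 and 136 CPM) stood beside B lineage levels of 85.2 and 28.5 CPM and of 77.1 and 83.8 CPM. With Elane counted, 2 of 6 were past 1.5-fold higher and 2 lower, where 8.8% of genes were higher and 18.4% lower. Ctsg thus made up 40.6% of the 6 in control cells against 67.8% with MYC, and Mpo 43.2% and 17.6%. In this class markers of stem or multipotent progenitors summed to 3228 and 2342 CPM, with Kit at 32.3 and 16.4 CPM, those of granulocyte progenitors to 5702 and 7052 CPM and those of monocytes to 2849 and 3752 CPM; their part was not tested, and no processing alternative was run for this class. A Ctsg UMI was found in 48.5% (40.8% to 56.3%) and 71.8% (63.7% to 79.1%) of thinned cells. Both genes have basophil genes as neighbours on the same strand: Mcpt8, a basophil protease, lies 14607 bases from Ctsg and was at 22026 and 23618 CPM in this class, and Ms4a2, the beta chain of the IgE receptor, lies 5776 bases from Ms4a3 and was at 1371 and 1146 CPM.

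Neighbours did not share the members' levels everywhere. Cfd, complement factor D, starts 2637 bases beyond the end of Elane, yet only 17 UMIs of it were counted in control granulocyte progenitors and 5 in those of the MYC library, against 103239 and 84816 of Elane. Plppr3 overlaps the GENCODE 5′ end of Prtn3 by 159 bases on the opposite strand, and its pattern over the 27 clusters was among the closest to the 6 genes; it was at 59.0 and 58.9 CPM in granulocyte progenitors. The strand setting of the counting is not given in the sources used here, so reads from that overlap cannot be assigned with certainty, nor those of Gm11505, antisense within Mpo, which had 48 and 63 UMIs in granulocyte progenitors.

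The 10 genes most like the list, by mean Pearson's r with the 6 over the 27 clusters among 10545 candidates, were Hsd17b1 (0.87), Plppr3 (0.82), Kcnk12 (0.81), Mfsd13a (0.80), Nkg7 (0.78), Cst7 (0.78), Trim45 (0.78), Dipk1b (0.76), Nrg4 (0.75) and Igfbp4 (0.74). Nkg7, Cst7 and Igfbp4 had also served as markers of the granulocyte progenitor class. In that class Hsd17b1 was at 16.1 and 26.9 CPM (log2 ratio 0.74, 0.46 to 1.03) and Mfsd13a at 71.9 and 46.1 CPM (−0.64, −0.81 to −0.47), so these genes too differed in direction between the libraries. Cst7, which encodes cystatin F, an inhibitor of the protease that activates granule serine proteases, was at 182 and 169 CPM (−0.10, −0.20 to −0.01).

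Other genes of the granule program were read in granulocyte progenitors, where 3.6% of all genes were past 1.5-fold higher and 27% lower, with a median log2 ratio of −0.30. Of other azurophil and lysosomal cargo, 18 of 22 listed genes were measured (at least 50 UMIs); 0 were higher and 4 lower, with a median log2 ratio of −0.33. Among the lower were Hexa (−0.71) and Ctsb (−0.67), which encode lysosomal enzymes, and Psap (−0.88), which encodes the precursor of their activator proteins. Lyz2, lysozyme, was at 1959 and 1924 CPM, and Cd63, a granule membrane protein, at 729 and 818 CPM.

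Of genes for folding, processing and packing of granule proteins, 20 of 20 were measured; 0 were higher and 9 lower, with a median of −0.52. Among the lower were 5 genes for chaperones of the endoplasmic reticulum: Calr, which binds the myeloperoxidase precursor, at 1180 and 698 CPM (−0.76), Canx at 368 and 219 CPM (−0.75), Hsp90b1 at 843 and 450 CPM (−0.91), Hspa5 at 759 and 428 CPM (−0.83) and Pdia4 at 111 and 60.9 CPM (−0.87). Other folding genes of that compartment on the list did not pass: Pdia3 (−0.33) and Pdia6 (−0.31) were near the median of all genes and Ppib was at 0.42. The others were Sort1, a sorting receptor (−0.94), Rab27a (−0.87) and Lyst (−0.64), which act in granule release and size, and G6pc3 (−0.74), whose loss causes neutropenia. Srgn, the proteoglycan core that packs granule proteases, was at 1861 and 2181 CPM (0.23), and Ctsc, the protease that activates them, at 15.4 and 18.7 CPM (0.28, −0.03 to 0.60).

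Of protease inhibitors, 7 of 13 listed were measured; 3 were higher and 0 lower, with a median of 0.58. These were Stfa1 (5.66 and 21.5 CPM, 1.93), Serpina3g (6.74 and 13.7 CPM, 1.02) and Serpinb6a (11.1 and 22.0 CPM, 0.98). Stfa1 belongs to a family of near-identical stefin copies between which reads can be split. Serpinb1a, an inhibitor of elastase, cathepsin G and proteinase 3 inside the neutrophil, was at 759 and 1136 CPM (0.58, 0.54 to 0.62), just short of 1.5-fold.

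Of regulators of the list, 17 of 18 were measured; 2 were higher and 10 lower, with a median of −0.63. Cebpa and Gfi1, factors needed to start granulopoiesis, were at 81.2 and 52.4 CPM (−0.63) and 118 and 69.6 CPM (−0.76), and Myb and Runx1, which act on granule gene promoters, at 401 and 218 CPM (−0.88) and 80.0 and 47.2 CPM (−0.76). Irf8 (−1.49) and Zeb2 (−1.07), factors of the monocyte and dendritic branches, Etv6 (−0.77), Per3 (−0.68), Trim28 (−0.65) and Tal1 (−0.63) were lower as well. Cebpb was higher, at 160 and 249.5 CPM (0.64), and so was Egr1, at 3.32 and 9.56 CPM (1.52). Spi1, which encodes PU.1, was at 299 and 326 CPM (0.12), and Cebpe, the factor of the secondary granule stage, at 373 and 440 CPM (0.24).

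The later granules were read for comparison. Of 9 secondary granule genes, all measured, 0 were higher and 1 lower, with a median of −0.22; the lower one was Fcnb (1870 and 992 CPM, −0.92), a ficolin. Camp (15610.0 and 18673 CPM, 0.26) and Lcn2 (2512 and 3326 CPM, 0.41) had the highest ratios of that list together with Hp (0.22), and Ltf was at 1711 and 1203 CPM (−0.51). Of 5 tertiary granule genes 4 were measured; 0 were higher and 1, Itgam, was lower (−0.76).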

How the data were processed

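Marrow cells of 1 control and 1 MYC library were read from the deposited tables of raw UMI counts, which per the file headers came from Cell Ranger 6.0.0; the submitters' processing notes name Cell Ranger 6.0, Seurat, GRCm38 and mm10. The annotation used and the strand setting are not given in the sources used here. The control held 17073 barcodes with 131884603 UMIs and the MYC library 14496 with 110012176. Barcodes with under 500 UMIs or 200 genes or at least 10% mitochondrial UMIs were removed, as were doublets at a Scrublet score of 0.25, a value set after the automatic threshold called 0 in the MYC library: 1272 (8.23%) and 708 (5.49%), where 12.4% and 10.3% would be expected.

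Cells were clustered with scanpy 1.11.5 (2000 variable genes without the 6 genes and the lists, 30 components, Leiden resolution 1) and named from markers. Clusters under 0.2 of the library's median UMIs, and 1 led by Mrc1, stayed unnamed (2771 and 2876 cells). Dividing clusters had an Mki67 or Top2a UMI in over 95% of cells, since the planned 50% did not separate them. The bins within granulocyte progenitors, the low-UMI rule, the stage of cluster 6 and the 95% were set after values were seen. The 6 genes and all lists were chosen with earlier results of these data known.

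UMIs were summed per class; intervals are exact Poisson, conditional binomial, Clopper-Pearson or, for differences of shares, Newcombe, at 95%. The interval of a ratio was tested on simulated counts. No test was run, since each group had 1 library. Named genes were the 6, Cfd, list genes past 1.5-fold in granulocyte progenitors (otherwise the 3 highest and 3 lowest of a list) and the 10 most alike by correlation; others, such as neighbours and genes of known function, were added after values were seen. Nothing was corrected for free RNA. The value of 1 listed gene is not reported here.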

Additional observations from a re-analysis of the deposited data

How the results depend on the processing

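The log2 ratio of the summed 6 genes depended on the processing. In the stem or multipotent class it was 0.62 with under 5% mitochondrial UMIs, 0.79 with doublets kept, −0.0061 with Leiden resolution 0.5, 0.68 with Leiden resolution 2, −1.04 with separate clustering of the libraries, 0.26 with cells classified by markers alone, 1.13 with median-of-ratios scaling, 0.88 with the 20 most abundant genes out of the denominator, 0.64 with a mean over cells, 1.13 with the B lineage level subtracted and 0.010 with both progenitor classes joined. In granulocyte progenitors it was 0.52 with under 5% mitochondrial UMIs, −0.27 with a minimum of 1000 UMIs and 500 genes, 0.022 with doublets kept, −0.34 with Leiden resolution 2, −0.16 with cells classified by markers alone, 0.27 with median-of-ratios scaling, 0.027 with a mean over cells and 0.010 with both progenitor classes joined. In immature neutrophils it was −0.21 with under 5% mitochondrial UMIs, 0.12 with a minimum of 1000 UMIs and 500 genes, 0.25 with doublets kept, −0.0048 with Leiden resolution 0.5, 0.39 with Leiden resolution 2, −1.75 with separate clustering of the libraries, 0.33 with median-of-ratios scaling, 0.11 with the 20 most abundant genes out of the denominator, 0.41 with a mean over cells, 0.36 with the B lineage level subtracted and −0.20 with cluster 6 counted as immature. In mature neutrophils it was −0.087 with under 5% mitochondrial UMIs, −0.075 with a minimum of 1000 UMIs and 500 genes, −0.093 with Leiden resolution 0.5, −0.087 with Leiden resolution 2, 0.11 with separate clustering of the libraries, −0.11 with cells classified by markers alone, 0.013 with median-of-ratios scaling, −0.099 with the 20 most abundant genes out of the denominator, 3.24 with the B lineage level subtracted (which leaves the control only Prss57 and Ms4a3) and 0.0096 with cluster 6 counted as immature. In monocytes it was 0.31 with under 5% mitochondrial UMIs, 0.043 with a minimum of 1000 UMIs and 500 genes, 0.054 with doublets kept, 0.033 with Leiden resolution 0.5, −0.20 with Leiden resolution 2, −1.99 with separate clustering of the libraries, 0.33 with cells classified by markers alone, 0.11 with median-of-ratios scaling, −0.16 with the 20 most abundant genes out of the denominator, 0.28 with a mean over cells and 0.014 with the B lineage level subtracted. The Elane share difference in granulocyte progenitors, in percentage points, was −3.86 with under 5% mitochondrial UMIs, −2.71 with a minimum of 1000 UMIs and 500 genes, −2.92 with Leiden resolution 2, −1.65 with cells classified by markers alone, −0.64 with a mean over cells and −0.50 with both progenitor classes joined. The Mpo share difference in granulocyte progenitors, in percentage points, was −7.18 with under 5% mitochondrial UMIs, −10.29 with cells classified by markers alone and −10.08 with a mean over cells. The Prtn3 share difference in granulocyte progenitors, in percentage points, was 6.35 with a minimum of 1000 UMIs and 500 genes, 6.95 with Leiden resolution 2, 6.20 with cells classified by markers alone and 5.31 with both progenitor classes joined. The Ctsg share difference in granulocyte progenitors, in percentage points, was 5.0 with under 5% mitochondrial UMIs, 6.42 with a minimum of 1000 UMIs and 500 genes, 6.20 with Leiden resolution 2, 4.86 with cells classified by markers alone, 4.26 with a mean over cells and 5.10 with both progenitor classes joined. Log2 ratios past 1.5-fold that reversed in the stem or multipotent class were −0.052 for Elane with Leiden resolution 0.5, −1.64 for Elane with separate clustering of the libraries, −0.18 for Elane with cells classified by markers alone, −0.014 for Elane with both progenitor classes joined, −0.66 for Prtn3 with separate clustering of the libraries, −0.092 for Ctsg with separate clustering of the libraries, −1.30 for Prss57 with separate clustering of the libraries and −0.86 for Ms4a3 with separate clustering of the libraries. Log2 ratios past 1.5-fold that reversed in immature neutrophils were −1.52 for Ctsg with separate clustering of the libraries, −0.47 for Prss57 with separate clustering of the libraries and −0.61 for Ms4a3 with separate clustering of the libraries. Log2 ratios past 1.5-fold that reversed in monocytes were −0.096 for Ctsg with Leiden resolution 2 and −1.74 for Ctsg with separate clustering of the libraries. Share differences whose interval excluded 0 and that reversed in the stem or multipotent class were −3.27 for Elane with under 5% mitochondrial UMIs, −1.38 for Elane with doublets kept, −0.91 for Elane with Leiden resolution 0.5, −1.45 for Elane with Leiden resolution 2, −9.25 for Elane with separate clustering of the libraries, −4.29 for Elane with cells classified by markers alone, −0.36 for Elane with a mean over cells and −0.50 for Elane with both progenitor classes joined. Share differences whose interval excluded 0 and that reversed in mature neutrophils were 35.64 for Elane with the B lineage level subtracted, 24.60 for Mpo with the B lineage level subtracted, −52.74 for Prss57 with the B lineage level subtracted and −27.83 for Ms4a3 with the B lineage level subtracted. These 4 follow from the setting: the control levels of Elane, Mpo, Prtn3 and Ctsg lie below those of B lineage cells and become 0, and these genes have no log2 ratio there. Share differences whose interval excluded 0 and that reversed in monocytes were −0.053 for Prss57 with under 5% mitochondrial UMIs, −0.031 for Prss57 with separate clustering of the libraries and −0.32 for Ms4a3 with under 5% mitochondrial UMIs. Of ratios not past 1.5-fold, signs also changed for Mpo in the stem or multipotent class (down to −1.45), Elane (up to 0.17) and Prtn3 (down to −1.29) in immature neutrophils, Prtn3 (−1.07), Prss57 (−2.11) and Ms4a3 (−1.94) in monocytes, and Elane (up to 0.36), Prtn3 (−0.015), Prss57 (−0.25) and Ms4a3 (−0.090) in granulocyte progenitors. Of share differences whose interval held 0, the sign changed for Prss57 in the stem or multipotent class (−0.15 with separate clustering of the libraries) and for Elane in granulocyte progenitors (0.030 with the B lineage level subtracted).

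Joining both progenitor classes and counting cluster 6 as immature were chosen after seeing the data. Granulocyte progenitors had no value at resolution 0.5 or with each library clustered on its own, nor had the stem or multipotent class at the higher UMI minimum. The causes were not tested. No range over the alternatives is given for the dividing or other clusters of immature neutrophils and monocytes taken apart, so their calls carry no such check. Over all genes tested in granulocyte progenitors, 355 were past 1.5-fold higher and 2658 lower, against 442 and 2903 at a minimum of 10 UMIs and 250 and 1870 at 200. No paired analysis was possible because each group had 1 library and no test was run. Depth limits the reading of Prss57 and of levels near those of erythroid and B lineage cells.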

Other observations

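Barcodes removed for their mitochondrial share (1475 control and 1592 MYC barcodes with enough UMIs and genes) held the 6 genes at 9484 and 6681 CPM in sum, above the 4270 and 4655 CPM of all kept cells. In them Mpo made up 44.0% and 42.7% of the 6, a difference of −1.36 percentage points (−2.11 to −0.61); Ctsg made up 8.15% and 15.5%. Over all kept cells, Ctsg was at 381 and 697 CPM (log2 ratio 0.87, 0.85 to 0.89), Mpo at 1296 and 887 CPM (−0.55, −0.56 to −0.54) and Prtn3 at 1171 and 1627 CPM (0.47, 0.46 to 0.48).

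A single control cell named as a T or NK cell held 695 UMIs of the 6 genes, 37.7% of all in that class, and a single control B lineage cell held 763, or 21.1%; the richest cells of these classes in the MYC library held 6 and 81.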
